A study of Mus musculus with 104 samples.

Results

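Shared prey sites were 1 kb windows of the mm9 mouse genome, off chromosomes 7, 12, 15 and X, that held 3 or more break junctions from each of the 3 baits, summed over all pools. Of 249674 windows with a junction on these chromosomes, 65 met this rule, and they held 4405 of 397358 junctions (1.11%). The counts per bait chose the windows, so those counts are given as a description and carry no test. The 12 windows just inside the threshold had 3 junctions from the bait that gave fewest and 12 to 61 junctions in all (median 25.5), whereas 53 windows just outside it had 2 from that bait and 6 to 171 in all (median 14).

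The method, HTGTS, reads translocations genome-wide: a bait break cut at a fixed site joins to other broken ends, the prey, and the joined DNA is amplified from the bait side and sequenced. The series asked whether neural progenitor cells (NPC) differentiated from embryonic stem cells (ESC), and the ESC themselves, form recurrent break clusters under replication stress. NPC treated with aphidicolin (APH), NPC given the solvent DMSO, ESC treated with APH and ESC given DMSO made up the 4 conditions, with 2 lines of each cell type and baits on chromosomes 7, 12 and 15. All cells, the DMSO controls included, were Xrcc4-/- p53-/- on a C57BL6/129SVE background, so every value describes cells without these factors of end joining and of the damage response. The 104 experiments were deposited as 24 pools, 6 per condition, and a pool mixes experiments that are not treated as replicates here. The tables hold DNA junctions, so cell identity could not be checked against expressed markers.

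As background, Xrcc4 serves the main pathway that rejoins broken ends, and cells without it join ends through other routes that often use short matching bases at the joint, called microhomology. Aphidicolin slows the replicative polymerases and promotes breaks in late-replicating loci. Several kinds of DNA can draw junctions from any bait: sites that break often, arrays of repeated genes such as those for ribosomal RNA, mitochondrial DNA, and short low-complexity or repeated letters at which an aligner can place reads from elsewhere.

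The windows fell into 5 groups by their letters and places, a grouping made after the reads were seen. The G-run windows were the 13 in which at least 50% of junctions had an unbroken run of 20 or more G or C in the aligned prey. Another 6 adjoining windows formed a block on chromosome 17, 7 windows within 3 kb of each other formed a block on chromosome 9, 12 lay on the mitochondrial chromosome, and 27 were left over as other windows. The letters below were taken from the deposited reads at the busiest position and strand of each window and show what the aligned prey looked like in each group. Capitals mark the stretch aligned at the prey site and held by at least 50% of the reads there, and the 12 lower-case letters are the commonest ones read just before it, which can rest on few reads.

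In the G-run windows the aligned letters were a run of G, alone or after A or T.
chr14:46432490-46432533, minus strand: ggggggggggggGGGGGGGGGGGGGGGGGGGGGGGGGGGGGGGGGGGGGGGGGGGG
chr10:59908581-59908611, minus strand: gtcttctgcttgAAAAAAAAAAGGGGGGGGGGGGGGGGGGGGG
chr11:22873177-22873214, minus strand: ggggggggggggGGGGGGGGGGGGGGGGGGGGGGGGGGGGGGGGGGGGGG
chr1:57280382-57280419, plus strand: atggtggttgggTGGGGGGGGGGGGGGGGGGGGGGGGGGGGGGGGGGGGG
Of the reads with the printed stretch, 6 of 27 had the lower-case letters shown in the chr14 line, 34 of 84 in the chr10 line, 2 of 31 in the chr11 line and 1 of 10 in the chr1 line. The letters before the chromosome 10 stretch are those in which an Illumina P7 adapter ends when a read runs through it, and the 10 A and 21 G follow them directly. Of 744 G-run junctions, 41 (5.51%) had these 12 letters just before the prey, all of them in 1 window, against 7 of 392953 junctions outside the shared windows (0.0018%). Anywhere among the inserted bases the letters stood in 51 G-run junctions (6.85%) and in 30 outside the shared windows (0.0076%). None of the junctions in the other 4 groups held them. Whether adapter read-through plays a part in this window was not tested. The letters were chosen as the commonest 12 inserted bases before the prey in the G-run windows, so these counts are a description.

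One further window, on chromosome 14, had all of its junctions at 2 positions, which are the ends of the same 30 bases read on either strand.
chr14:90843573-90843602, plus strand: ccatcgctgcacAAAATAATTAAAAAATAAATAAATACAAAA
chr14:90843573-90843602, minus strand: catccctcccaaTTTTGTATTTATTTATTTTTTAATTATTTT
The 12 letters before the plus-strand stretch were identical in 31 of 39 reads, and the 39 reads came from 16 of the 24 pools. Those before the minus-strand stretch were shared by 4 of 26 reads.

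The 2 blocks and the mitochondrial windows held ordinary mixed sequence, shown by 1 window of each.
chr17:39982526-39982569, plus strand: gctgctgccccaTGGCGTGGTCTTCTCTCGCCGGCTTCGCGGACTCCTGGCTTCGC
chr9:121838468-121838527, minus strand: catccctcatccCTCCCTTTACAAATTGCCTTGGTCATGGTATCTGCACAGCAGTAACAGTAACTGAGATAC
chrM:942-1001, minus strand: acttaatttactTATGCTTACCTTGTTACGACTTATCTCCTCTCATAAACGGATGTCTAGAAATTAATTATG
Few reads stood at these positions, and the lower-case letters were those of 1 of 2 reads in the chr17 line, 2 of 3 in the chr9 line and 3 of 3 in the chrM line.

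Some of the other windows shared letters across chromosomes, which is shown by the longest stretch found in at least 2 reads of both windows, in capitals with its flanks in lower case.
chr10:21862747-21862825, plus strand, shared with the window chr13:3372001-3373000: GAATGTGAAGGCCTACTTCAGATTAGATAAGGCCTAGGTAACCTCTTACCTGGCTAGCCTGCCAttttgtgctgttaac
chr1:58670775-58670863, minus strand, shared with the window chr3:8246001-8247000: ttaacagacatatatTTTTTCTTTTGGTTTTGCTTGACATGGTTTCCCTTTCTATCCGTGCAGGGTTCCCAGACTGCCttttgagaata
The shared stretches are 64 and 63 bases long. In the chromosome 13 window, 94.9% of reads had a 21-base word held by 2 or more reads of the chromosome 10 window, and 83.3% of the chromosome 10 reads had one in return.

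The chromosome 17 block was the most heavily joined of the shared sites. It spans chr17:39980001-39986000 and held 1568 junctions at 1060 distinct positions, from 39980010 to 39985774. The 10 kb before it held 12 junctions and the 10 kb after it held 1. As background, the mm9 assembly carries a copy of the 45S pre-ribosomal RNA gene, the precursor of the large ribosomal RNAs, at this place on chromosome 17, while the many other copies of that gene lie in arrays that the assembly does not lay out. Reads from any copy can therefore align here. Its 6 windows held 182 to 319 junctions each, and the window with the most distinct positions of all shared sites, chr17:39982001-39983000, had 213. The next 2 by that measure, chr17:39981001-39982000 with 206 and chr17:39980001-39981000 with 186, are its neighbours.

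The 4 windows with the highest count from the bait that gave fewest were all in this block. The window chr17:39982001-39983000 had 41 junctions from the bait on chromosome 7, 197 from the bait on chromosome 12 and 81 from the bait on chromosome 15. The window chr17:39985001-39986000 had 39, 199 and 59 from the same baits in that order. The windows chr17:39980001-39981000 and chr17:39981001-39982000 had 33 and 32 from bait 7, 148 and 190 from bait 12, and 73 and 87 from bait 15. Of all junctions in the block, 999 came from bait 12, 392 from bait 15 and 177 from bait 7. Bait 7, 12 and 15 pools differ in depth, and the block's share of a pool's junctions was also highest in bait 12 pools in each condition. Junctions here were spread rather than stacked, since no position held more than 9 of a window's junctions.

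The mitochondrial windows stood in 2 runs. The run chrM:1-6000 held 229 junctions at 177 positions, and the run chrM:11001-17000 held 192 junctions at 148 positions. Between the runs only 3 windows held a junction, with 12, 1 and 1. Counts per mitochondrial window were 12 to 52, and the 12 windows held 421 of the 435 mitochondrial junctions. Baits 7, 12 and 15 contributed 112, 83 and 226 of them.

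**Figure D1:**
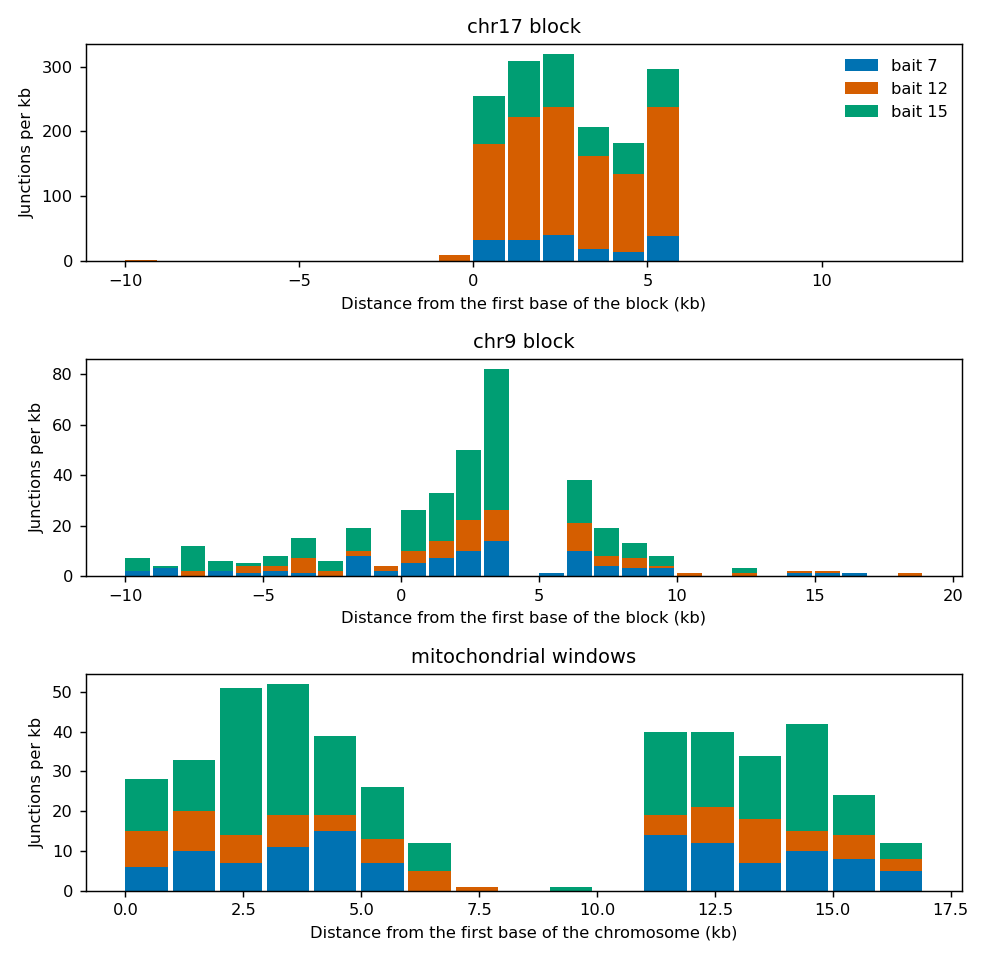
Junctions per 1 kb window along the chromosome 17 block, the chromosome 9 block and the mitochondrial chromosome, stacked by bait, with distance in kb on the x axis. The chromosome 17 block has sharp edges, with 12 junctions in the 10 kb before it and 1 in the 10 kb after it, and the chromosome 9 block sits on a broader rise. The mitochondrial counts are low between 6 and 11 kb, where the windows with a junction held 12, 1 and 1.

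The chromosome 9 block had soft edges. Its 7 windows lie in 2 stretches, chr9:121835001-121839000 with 191 junctions and chr9:121841001-121844000 with 70, with 1 junction in the 2 windows between them. The 10 kb before the block held 86 junctions and the 10 kb after it held 18. The busiest window, chr9:121838001-121839000, had 82 junctions at 48 positions, of which 14 came from bait 7, 12 from bait 12 and 56 from bait 15. The windows chr9:121837001-121838000 and chr9:121841001-121842000 were also among the 15 with the most from the bait that gave fewest, with 10 from bait 7 each.

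Among the other windows, runs of neighbours on chromosome 2 stood out by count. The pair chr2:181652001-181654000 held 207 junctions at 127 positions, and the first of its windows had 11, 87 and 50 from baits 7, 12 and 15. A second run at chr2:181663001-181666000 held 151 junctions at 87 positions, including chr2:181665001-181666000 with 9, 42 and 24 from the 3 baits. The run chr3:8244001-8247000 had 130 junctions, and 3 of its windows shared letters with windows of chromosomes 1 and 2. The window chr18:3005001-3006000, near the centromeric end of chromosome 18 in mm9, had 93 junctions at 73 positions, with 11, 58 and 24 from baits 7, 12 and 15. The window chr10:21862001-21863000 had 48 junctions, with 10, 26 and 12 from those baits. In the mitochondrial window chrM:1001-2000 the 3 baits gave 10, 10 and 13.

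The groups overlapped in their number of distinct positions. G-run windows had 7 to 17 positions for 16 to 182 junctions, and some chromosome 9, mitochondrial and other windows with few junctions had as few. After G-run positions within 5 bases were merged they numbered 1 to 7. In the window chr10:59908001-59909000, 87 of 182 junctions lay at a single base. Distinct positions came to a median of 24.1% of junctions in G-run windows, 66.7% in the chromosome 17 block, 77.6% in mitochondrial windows and 59.2% in the other windows. The 402 windows outside the set that had 9 or more junctions had a median of 50.2%. The window chr14:90843001-90844000, whose letters are printed above, had 66 junctions at 2 positions, 39 on the plus strand and 27 on the minus strand, and bait 7, 12 and 15 gave 23, 20 and 23 of them. Other windows with few positions for their count were chr17:56145001-56146000, with 11 positions for 32 junctions, and chr1:97348001-97349000, with 22 for 53, both chosen after their values were seen.

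**Figure D2:**
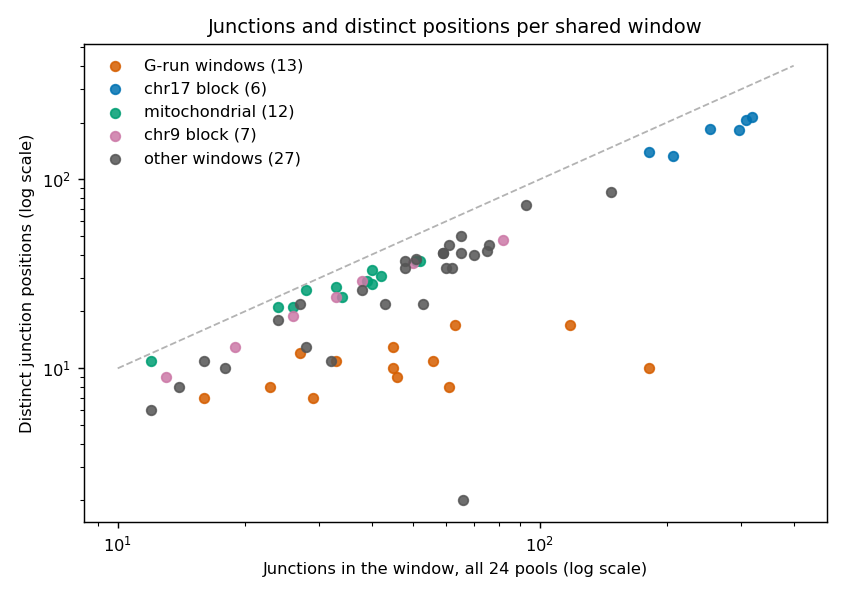
Junctions in each shared window, summed over the 24 pools, on the x axis against distinct junction positions on the y axis, both on log scales, with 1 point per window coloured by group and a dashed line where every junction has its own position. Chromosome 17, chromosome 9 and mitochondrial windows lie just under the line, the G-run windows lie at 7 to 17 positions whatever their count, and 1 window has 66 junctions at 2 positions.

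The 65 windows together had 2078 plus-strand junctions of 4405 (47.2%, 95% Clopper-Pearson interval 45.7 to 48.7%), against 49.6% of junctions outside them. With each position and strand counted once per table the share in the windows was 50.5%. The 49.6% outside them counts every junction, so it is no like measure for this value, and the difference depends on how junctions are counted. In 11 of 13 G-run windows more than 80% of junctions lay on 1 strand. Bait 15, which gave 551 of the 744 G-run junctions, weighed most in this, and bait 12, with 3 to 8 junctions per window, often leaned the other way. In chr14:46432001-46433000 the plus-strand share was 4% for bait 7, 75.0% for bait 12 and 0% for bait 15, and in chr11:22873001-22874000 it was 26.7% for bait 7, 80% for bait 12 and 0% for bait 15. The plus-strand share was 0% in chr4:102292001-102293000, where 0 of 61 junctions were plus (interval up to 5.87%), and 97.8% in chr1:74061001-74062000. The 6 windows of the chromosome 17 block had between 54.1 and 59.2% plus. Over the block this was 56.8% (54.3 to 59.2%), and the mitochondrial windows together had 57.7% plus (52.8 to 62.5%).

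The 2 stretches of the chromosome 9 block had opposite leanings. In chr9:121835001-121839000 the plus-strand share was 23.6%, and in chr9:121841001-121844000 it was 58.6%. The lowest window, chr9:121838001-121839000, had 10 plus and 72 minus junctions (12.2%, 6.01 to 21.3%). All 3 baits leaned the same way in it, with 14.3% plus for bait 7, 16.7% for bait 12 and 10.7% for bait 15. No other window outside the G-run group had more than 80% of its junctions on 1 strand. Among the 402 windows outside the set with 9 or more junctions, 221 did. The 2 sets are unlike, since 83 of the 402 were themselves rich in G or C runs. The 402 also held a median of 14 junctions, against 46 in the shared windows, and few junctions reach 80% more easily.

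The joints themselves differed between the groups. Outside the shared windows 74.3% of junctions had microhomology, 6.71% were blunt and 19.0% had inserted bases, with a median insertion of 4 bases. The chromosome 17 block was close to this, with microhomology in 74.7% and inserted bases in 18.8% of its junctions, and so was the chromosome 9 block, with 77.8% and 18.8%. Inserted bases were present in 91.7% of G-run junctions, with a median of 20 bases, and the aligned prey there had a median length of 38 bases against 74 outside the shared windows. In mitochondrial windows 41.3% of junctions had inserted bases (median 7.5) and in the other windows 42.2% (median 7). The window on chromosome 14 with 2 positions had inserted bases in all 66 junctions (median 8). These features were compared as values only, since the reads are not independent molecules.

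**Figure D3:**
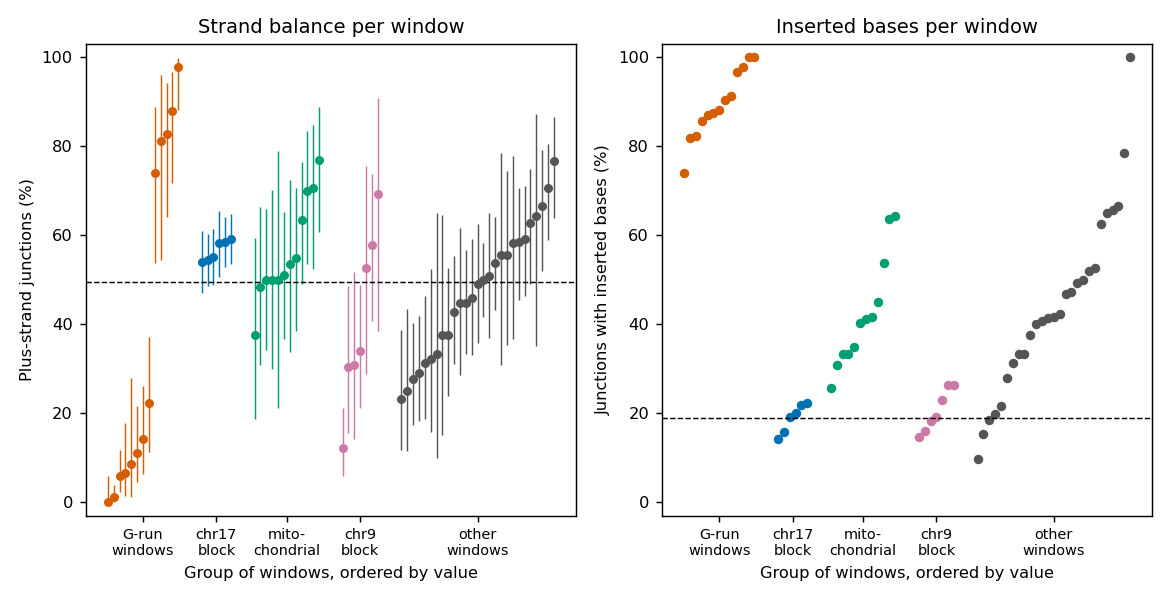
Plus-strand junctions per shared window in percent (left, bars show the 95% Clopper-Pearson interval) and junctions with inserted bases per window in percent (right), 1 point per window, ordered by value within each group, with a dashed line at the value outside the shared windows (49.6% and 19.0%). G-run windows sit near either edge of the strand scale and between 74.1 and 100% inserted, while the chromosome 17 and chromosome 9 blocks sit near the dashed line for inserted bases.

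Letters that also occur elsewhere were common. In 37 of the 65 windows at least 50% of junctions held a 21-base word that also appeared in prey aligned on another chromosome or more than 10 kb away, and the same was true of 262 of the 402 other windows with 9 or more junctions. This held for all 13 G-run windows, 23 of the 27 other windows and 1 of the 7 chromosome 9 windows, and for none of the chromosome 17 or mitochondrial windows. Against RefSeq sequences of the GRCm38.p6 build, matched by shared 25-base words and used only for names, 32 of 43 junctions in chr9:123782001-123783000 matched the hairpin of Mir5620 and 37 matched the promoter of Clcn4, a chloride-proton exchanger gene, both on chromosome 7 in that build. In chr3:5860001-5861000, 8 of 65 junctions matched the hairpin of Mir6240. In 12 of the 13 G-run windows between 72.4 and 100% of junctions matched promoters of 9 to 15 genes spread over 7 to 10 chromosomes. Any promoter with a run of 25 G or C holds such a word, so these matches point to no gene in particular. The chromosome 10 window was the exception, with 1 of its 182 junctions, and its printed stretch has a run of 21 G, shorter than the word.

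Junctions on the compared chromosomes numbered 9424 to 68020 per NPC pool and 3225 to 9742 per ESC pool, so 1 junction weighs more in ESC. Every share below is of these junctions. All shared windows together took 0.989 ± 0.724% of junctions in NPC under APH and 0.929 ± 0.474% in NPC under DMSO, and 2.55 ± 0.740% in ESC under APH and 1.84 ± 0.502% in ESC under DMSO (mean ± SD, n = 6 pools each). NPC pools were below the ESC pools of the same line and bait in 6 of 6 pairs under APH and in 5 of 6 under DMSO. Intervals cover counting error only. Separate cultures are not named in the labels, and the p-values below therefore reflect variation among pools that could be technical.

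**Figure D4:**
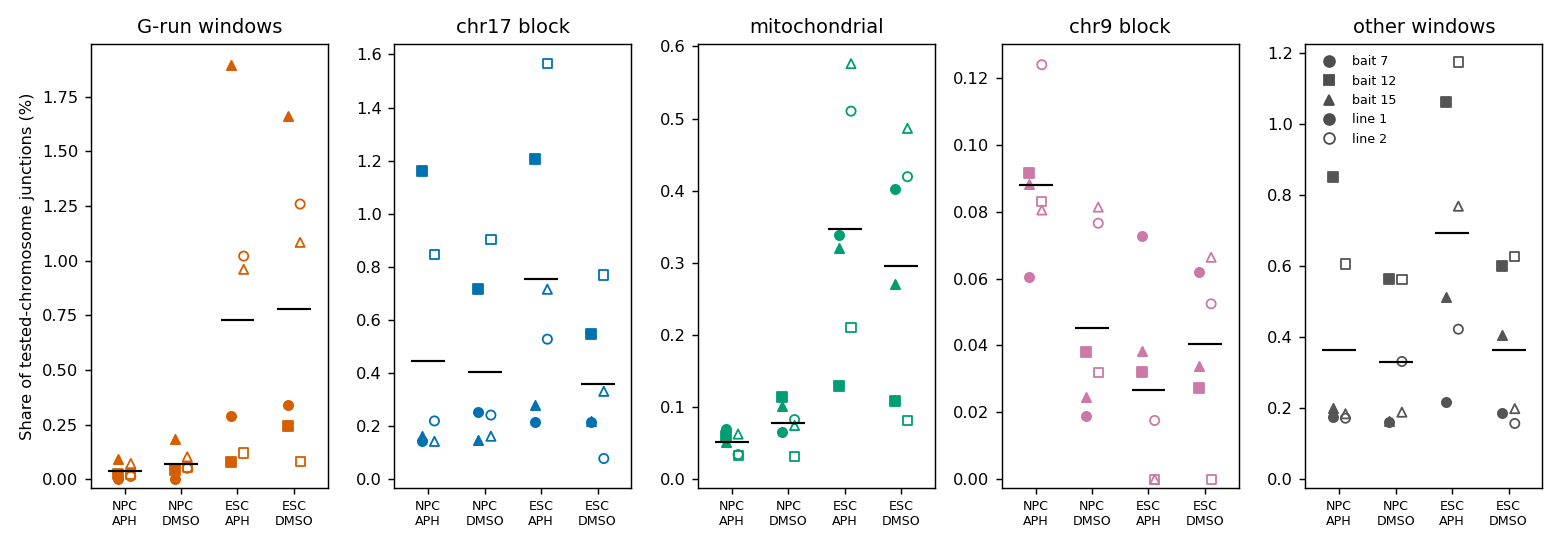
Share of each pool's junctions on the compared chromosomes, in percent, that fell in each group of shared windows, by condition, with 1 point per pool (shape for the bait, filled for line 1, open for line 2) and a bar at the mean of the 6 pools. G-run shares are lower in NPC than in ESC in 6 of 6 pairs under both treatments and mitochondrial shares in 6 under APH and 5 under DMSO, bait 12 pools are highest in the chromosome 17 block and the other windows, and the chromosome 9 block is highest in NPC under APH.

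NPC were compared with ESC window by window with edgeR's quasi-likelihood test over 184 windows with 20 or more junctions, of which 57 were shared windows. Under APH, 29 of the 57 shared windows were lower in NPC at an adjusted p under 0.05 and 2 were higher, whereas over all 184 windows 45.1% were called lower and 13.6% higher. Under DMSO, 16 of 57 were lower and none higher, against 31.5 and 6.52% of all windows. The unadjusted p was under 0.05 and the value higher in NPC in 0 shared windows under DMSO, and DESeq2 also called 0 higher. The median log2 fold change of the shared windows was -1.28 under APH, against -1.19 over all tested windows, and -0.58 under DMSO, against -0.92. The share of lower calls was near the background, and that of higher calls was below it, at 3.51% under APH. The rule and the minimum of 20 used junctions summed over all pools, so a window could pass both through the group in which it was high. The lower calls numbered 9 under APH and 6 under DMSO without bait 15, 17 and 6 without line 1, 14 and 10 without line 2, and 19 and 9 without line 1 bait 15 alone. Values above 0 under DMSO numbered 19 of 57, and 28 of 57 with TMM factors.

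The G-run windows were lower in NPC. All 12 that were tested were called in both treatments, with log2 fold changes of -5.13 to -2.74 under APH and -4.29 to -2.47 under DMSO. Over all 184 tested windows 45.1% were called lower under APH and 31.5% under DMSO. Most of the 12 had fewer than 20 junctions in NPC and passed the minimum through ESC. The rest, the 2 windows named below, met the rule of 3 per bait only with ESC junctions. These calls therefore give no support of their own. Of the 12, 11 were called under APH and 0 under DMSO without the replicate block, 7 and 5 without bait 15, 7 and 6 without line 1, and 9 and 7 without line 1 bait 15. Under DMSO 10 of 12 were called with TMM factors, 10 with DESeq2, and 7 of 13 with no filter. The window chr14:46432001-46433000 had a lowest, median and highest value of 0, 0.536 and 1.18 junctions per 10000 in NPC under APH, against 1.61, 7.62 and 43.5 in ESC under APH. Its log2 fold change was -4.45 ± 0.58 (SE), with an adjusted p of 3.39e-12 by edgeR, and it was lower in NPC in 6 of 6 line and bait pairs. The lowest ESC pool lay above the highest NPC pool, but that ESC value, of line 1 bait 12, rests on 1 junction.

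Under DMSO the same window had 0, 0.872 and 2.10 per 10000 in NPC and 0, 4.87 and 33.9 in ESC, with a log2 fold change of -3.58 ± 0.61 and an adjusted p of 2.67e-07 by edgeR. Here the groups overlapped. The window chr10:59908001-59909000 had 0, 0 and 3.53 per 10000 in NPC under APH and 0, 7.70 and 41.9 in ESC under APH, with a log2 fold change of -3.79 ± 0.55 and an adjusted p of 2.89e-10 by edgeR. Its ESC values were highest in bait 15 pools.

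Sequencing instruments, taken from the read names, were unevenly spread over cell types and baits. Over all pools, G-run windows took 0.267% of junctions read on the instrument with the prefix NB551505 (0.247 to 0.288%), 0.0415% on M01407 (0.0313 to 0.0540%) and 0.0566% on NS500233 (0.0184 to 0.132%). As background, NB and NS prefixes belong to instruments that write a base without signal as G. All bait 15 pools and all ESC line 2 pools were read on NB551505. Pools read on both NB551505 and M01407 held few G-run junctions, 0 to 11 on either instrument. ESC line 1 bait 7 had 0.288% on NB551505 and 0.291% on M01407 under APH. Under DMSO it had 0% on NB551505 (up to 0.291%) and 0.562% on M01407. NPC line 2 bait 7 under DMSO had 0.0667% on NB551505 (0.0268 to 0.137%) and 0.0193% on M01407 (up to 0.107%). Within bait 15 on that instrument the G-run share was 0.104% in NPC (0.0902 to 0.120%) and 1.46% in ESC (1.31 to 1.62%), and on M01407, over all baits read there, it was 0.0187% in NPC and 0.226% in ESC. The NPC share was the lower one in both of these comparisons, and NS500233 read NPC only. Whether the instrument plays a part in the G-run shares was not tested. In the single run that read line 1 bait 15 of both cell types it was 0.0941% in NPC and 0.901% in ESC under APH, and 0.185% in NPC and 1.01% in ESC under DMSO.

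Mitochondrial windows were lower in NPC too. All 11 tested were called lower under APH, with log2 fold changes of -4.37 to -1.76, and 4 of 11 were called lower under DMSO. The counts under APH and DMSO were 7 and 3 with TMM factors, 9 and 5 with DESeq2, 4 and 0 without the replicate block, and 3 and 1 of 12 with no filter. They were 2 and 1 without bait 15, 5 and 0 without line 1, 2 and 1 without line 2, 6 and 2 without bait 7, 10 and 7 without bait 12, 6 and 2 without line 1 bait 15, and 6 and 1 without line 2 bait 15. Some of the 11 windows, chrM:1-1000 among them, had fewer than 20 junctions in NPC and passed the minimum through ESC, so those calls give no support of their own. The mitochondrial windows together took 0.0519 ± 0.0152% of junctions in NPC under APH and 0.0785 ± 0.0288% in NPC under DMSO, against 0.347 ± 0.171% in ESC under APH and 0.295 ± 0.170% in ESC under DMSO (SD, n = 6 pools each). The window chrM:1-1000 had 0, 0 and 0.286 junctions per 10000 in NPC under APH (lowest, median and highest pool) and 0, 3.37 and 5.24 in ESC under APH. Its log2 fold change was -4.37 ± 0.83 with an adjusted p of 1.18e-06 by edgeR, and it was lower in NPC in 5 of 6 pairs. The window chrM:3001-4000, the only mitochondrial one among the 10 smallest adjusted p under DMSO, had 0, 0.531 and 1.40 per 10000 in NPC under DMSO and 0, 4.83 and 9.30 in ESC under DMSO, with a log2 fold change of -2.89 ± 0.74 and an adjusted p of 0.00062 by edgeR. In the run that read line 1 bait 15 of both cell types the mitochondrial share was also lower in NPC, at 0.0515% against 0.367% in ESC under APH. Under DMSO it was 0.101% in NPC (0.0679 to 0.146%) and 0.272% in ESC (0.136 to 0.487%, from 11 junctions), and these intervals overlapped.

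In the chromosome 17 block, 3 of 6 windows were lower in NPC under APH and none under DMSO. The window chr17:39982001-39983000 had 1.57, 4.52 and 21.6 junctions per 10000 in NPC under APH (lowest, median and highest pool) and 6.40, 17.5 and 39.1 in ESC under APH, with a log2 fold change of -1.24 ± 0.38, an adjusted p of 0.00303 by edgeR and lower values in NPC in 6 of 6 pairs. The groups overlapped, and the bait 12 pools were the highest in both cell types. The block took 0.447 ± 0.444% of junctions in NPC and 0.753 ± 0.534% in ESC under APH, and 0.404 ± 0.322% in NPC and 0.361 ± 0.254% in ESC under DMSO (SD, n = 6 pools each). No window of the block was called with TMM factors, with no filter on counts, without the replicate block, without line 2 or without bait 15.

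Both windows called higher in NPC under APH belonged to the chromosome 9 block, and in both the 6 ESC pools under APH held no junction. The window chr9:121837001-121838000 had 0.830 to 3.44 junctions per 10000 (median 1.35) in NPC under APH and 0 in every ESC pool under APH. Its 31 junctions in NPC against a count of 0 in ESC give at least 1.85-fold more in NPC, computed against a floor of 3 junctions over the ESC group. For chr9:121841001-121842000, with 27 junctions in NPC, the bound was at least 1.61-fold. Under DMSO these windows held 17 and 10 junctions in NPC and 2 and 1 in ESC, so both met the rule and the minimum of 20 through NPC, and their calls give no support of their own. They fell to 1 with DESeq2, without bait 12 or without line 1 bait 15, and to 0 with no filter, without line 1, without line 2 or without bait 15. Together the 7 windows of the block held 174 junctions in NPC under APH and 68 in NPC under DMSO, and 9 in ESC under APH and 10 in ESC under DMSO. Their share was 0.0861% in NPC under APH (0.0738 to 0.0999%), against 0.0249% in ESC under APH (0.0114 to 0.0472%), and 0.0530% in NPC under DMSO (0.0412 to 0.0672%), against 0.0324% in ESC under DMSO (0.0155 to 0.0596%). No window of the block would have met the rule without its NPC junctions, so these shares are a description and carry no test.

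Of the 23 other windows tested, 3 were lower in NPC under APH and none was called under DMSO. The 3 were chr3:5860001-5861000, chr9:123371001-123372000 and chr11:53954001-53955000, with log2 fold changes of -2.60, -2.27 and -1.83 and adjusted p of 0.000114, 0.00224 and 0.0236 by edgeR. The window chr3:5860001-5861000 had 0, 0.221 and 4.58 junctions per 10000 in NPC under APH (lowest, median and highest pool) and 0, 5.63 and 10.2 in ESC under APH. The median log2 fold change of the 23 windows was -0.75 under APH and -0.04 under DMSO. TMM factors moved the values of the shared windows up by a median of 0.35 under APH and 0.50 under DMSO on the log2 scale, and with them the chromosome 17 block lay at a median of -0.51 under APH and 0.47 under DMSO.

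**Figure D5:**
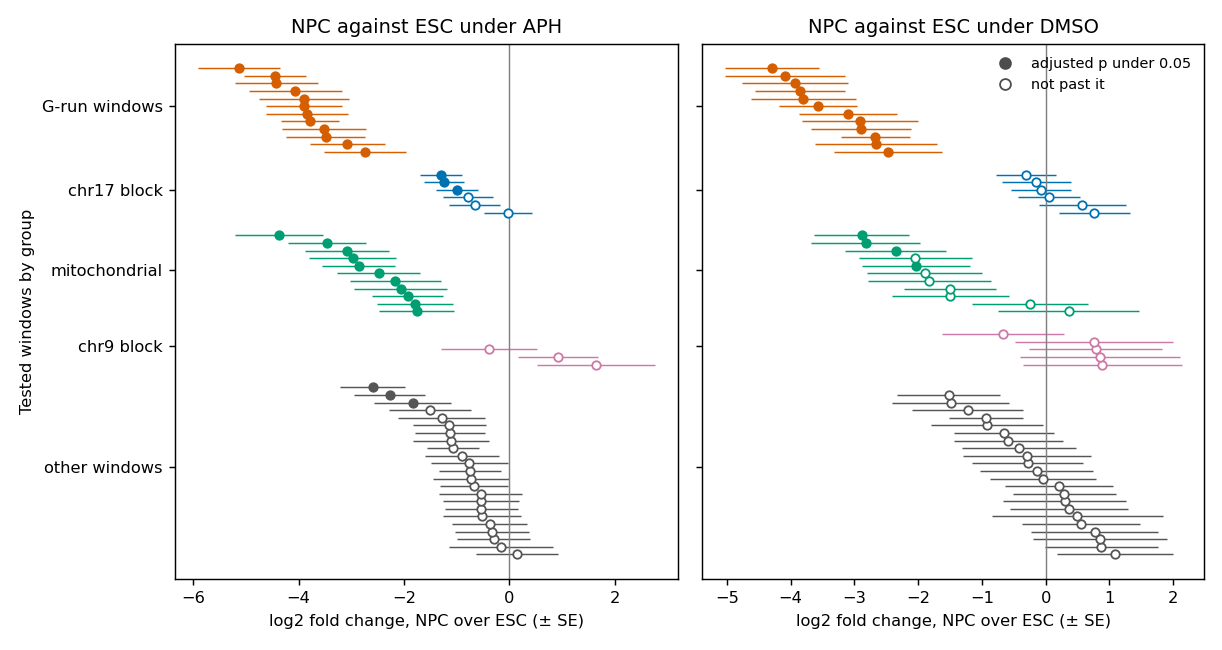
log2 fold change of NPC over ESC for each tested shared window, under APH (left) and under DMSO (right), with bars of 1 SE, grouped from top to bottom, filled where the adjusted p is under 0.05. Windows with no junction in 1 of the 2 groups are not drawn. All G-run windows are filled and lie between -5.13 and -2.47, mitochondrial windows lie mostly below 0, and the chromosome 17 and other windows spread around 0 under DMSO.

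APH was compared with DMSO within each cell type in the same windows. In NPC, 1 of 57 shared windows rose under APH and none fell, against 2.72 and 1.09% of all 184 tested windows. This was chr9:121838001-121839000, the busiest of the chromosome 9 block, with 0.464, 3.04 and 3.73 junctions per 10000 in NPC under APH (lowest, median and highest pool) and 0, 0.175 and 3.19 in NPC under DMSO. Its log2 fold change was 1.62 ± 0.48 with an adjusted p of 0.0226 by edgeR, and it was higher under APH in 5 of 6 pairs. The groups overlapped, since the DMSO pools of line 2 with baits 7 and 15 lay above the lowest APH pool, line 1 bait 7. None of its bait 12 junctions came from NPC under DMSO and 1 came from ESC. It therefore met the rule of 3 per bait through NPC under APH, and its call gives no support of its own. The call did not hold with TMM factors or DESeq2 (adjusted p 0.0958 and 0.997), nor by edgeR without line 1 bait 7, line 1 bait 12, line 1 bait 15, line 2 bait 12 or line 2 bait 15 (adjusted p 0.0653, 0.0731, 0.571, 0.0652 and 0.0995 by edgeR).

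The next smallest p-values for APH in NPC belonged to G-run windows. The window chr4:102292001-102293000 had a log2 fold change of -1.86 (adjusted p 0.219 by edgeR) and chr10:59908001-59909000 one of -1.19 (adjusted p 0.219 by edgeR). Neither passed the threshold. At an unadjusted p under 0.05, 2 shared windows were higher and 5 lower under APH in NPC.

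In ESC no shared window was called in either direction, and neither was any of the 184 windows, so the background was 0%. DESeq2 called none either, and at an unadjusted p under 0.05 edgeR gave 5 shared windows higher and 0 lower. The 3 with the smallest p were chr18:3005001-3006000, chr3:5860001-5861000 and chr17:39982001-39983000, with log2 fold changes of 2.26 ± 0.76, 1.84 ± 0.72 and 1.31 ± 0.54 and adjusted p of 0.328, 0.431 and 0.431 by edgeR. The chromosome 18 window had 0, 2.49 and 15.0 junctions per 10000 in ESC under APH (lowest, median and highest pool) and 0, 1.36 and 2.73 in ESC under DMSO. The fitted values were above 0 in 40 of 57 shared windows (48 with TMM factors), with a median log2 fold change of 0.59, against 0.12 over all tested windows.

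By group, the chromosome 17 block took 0.753 ± 0.534% of ESC junctions under APH and 0.361 ± 0.254% under DMSO, higher under APH in 6 of 6 pairs (SD, n = 6 pools each). The other windows took 0.693 ± 0.376% under APH and 0.363 ± 0.214% under DMSO, also higher in 6 of 6 pairs. In NPC the chromosome 17 block took 0.447 ± 0.444% under APH and 0.404 ± 0.322% under DMSO and was higher under APH in 2 of 6 pairs. These groups were set after the reads were seen, and their shares were not tested.

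The effect of APH was not shown to differ between NPC and ESC in any shared window, nor in any of the 184 windows, where the background was 0% in both directions. DESeq2 called none either, and the unadjusted p by edgeR was under 0.05 in 5 shared windows with a lower effect in NPC and in 0 with a higher one. The 3 with the smallest p were chr4:102292001-102293000, chr3:5860001-5861000 and chr14:90843001-90844000, with differences of log2 fold change, NPC minus ESC, of -2.24 ± 0.91, -2.25 ± 0.93 and -2.37 ± 1.03. Their adjusted p was 0.554 each by edgeR. All junctions of the first window in NPC came from bait 15. Without that bait its value was 0.18, but no APH effect in NPC could then be estimated, so 0.18 shows no direction. The 2-position window on chromosome 14 had 0.785 to 3.44 junctions per 10000 in NPC under APH, 1.06 to 4.46 in NPC under DMSO, 0 to 8.80 in ESC under APH and 0 to 6.20 in ESC under DMSO, so its groups overlapped throughout.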

How the data were processed

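Per the file headers, every row of a deposited table is a junction read with its prey position, strand, bait alignment and letters, and counts were made from these rows without normalization. Reads were aligned with Bowtie2 to mm9, per the submitters' processing notes; for its version and the junction caller the sources used here give nothing. Repeated read names within a table were removed, leaving 2018794 junctions. Windows, groups of windows and tests were chosen with earlier results of these data known. Of the 65 windows, 57 passed the minimum of 20 junctions over all pools; 8 did not and were only described. Counts in 184 windows were tested with edgeR 4.0.16 in R 4.3.3 (quasi-likelihood test, library size the pool's junctions on the compared chromosomes, Benjamini-Hochberg adjustment over all 184 at 0.05); SE is the fold change over the root of its F statistic. APH effects used 12 blocks of cell type, line and bait, and NPC against ESC used 6 blocks of line and bait. Pools of one line and bait share the cell line and break, and their deviations from the condition means correlated at 0.193 to 0.887 in all 24 pairs. DESeq2 1.42.0 was an alternative. Intervals are 95% Clopper-Pearson (scipy 1.17.1) and cover counting error only, since reads carry no molecular identifiers. Windows were named by most junctions from the bait that gave fewest (15), smallest adjusted p (up to 10, or 3, per comparison), run total (5) and extremes of distinct positions. The test was also run on simulated counts that had no differences between baits or lines, so that check does not cover such differences.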

Additional observations from a re-analysis of the deposited data

Results flagged for a closer look

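In 96 groups of 6 pools, 13 held a pool far from the other 5. The cutoff flags about 1 in 20 groups when values follow a normal distribution. Most groups here are sparse values with many at 0, so the 13 cannot be read against that rate. Among the shares, ESC line 1 bait 7 under APH had 1.14% of its junctions in shared windows, against 2.50 to 3.07% in the other 5 pools. The rest are junctions per 10000 in single windows, most of them a high pool beside pools at or near 0.

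Of the G-run windows, chr11:22873001-22874000 had 1.75 in NPC line 1 bait 15 under DMSO, and chr1:194484001-194485000 had 1.08 in NPC line 1 bait 12 under DMSO. The window chr1:57280001-57281000 had 10.2 in ESC line 1 bait 15 under APH. The window chr1:74061001-74062000 had 0.588 in NPC line 1 bait 15 under APH and 1.27 in NPC line 2 bait 7 under DMSO. The window chr4:102292001-102293000 had 0.735 in NPC line 1 bait 15 under APH, with 0 in the other 5 pools, and 2.45 in NPC line 1 bait 15 under DMSO. The window chr8:119652001-119653000 had 0.392 in NPC line 2 bait 15 under APH, with 0 in the other 5.

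Of the remaining windows, chr14:90843001-90844000 had 3.44 in NPC line 2 bait 7 under APH and 6.20 in ESC line 1 bait 7 under DMSO. The window chr3:5860001-5861000 had 4.58 in NPC line 1 bait 12 under APH. The window chr9:121838001-121839000 had 4.84 in ESC line 1 bait 7 under APH.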

How the results depend on the processing

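The number of shared windows was 62 to 67 with windows shifted along the chromosome, with 2 kb windows, with each position and strand counted once, with every row counted and with the bait taken from the table label. It was 40 with 5 junctions per bait, 118 with 2, 30 without line 1 pools and 28 without line 2 pools, and 53 without chromosomes M and Y, an alternative added after the data were seen. The plus-strand share was 50.5% with each position and strand counted once per table, against 47.2%.

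For NPC against ESC under APH, lower calls numbered 13 with a filter of 50 junctions (30 shared windows tested), 15 with no filter and 15 without the replicate block, and 9 to 30 when a line, a bait or a line and bait pair was left out (fewest without bait 15); higher calls numbered 1 with DESeq2, 1 with a filter of 50, 0 with no filter and 0 to 2 in those leave-outs. Under DMSO, lower calls numbered 6 with a filter of 50, 8 with no filter, 0 without the replicate block and 6 to 19 in the leave-outs. The 1 call for APH in NPC was 0 with TMM factors, DESeq2, a filter of 10, no filter, each position counted once and without the replicate block, and 0 or 1 in the leave-outs. A filter of 50 gave 1 higher call for APH in ESC. With bait 15 left out, the difference of APH effects in chr4:102292001-102293000 was 0.18. That window then held no junction in NPC, so the value shows no direction. The other leave-outs gave -3.12 to -1.83. The share of the chromosome 9 block in NPC under APH was 0.0879% of junctions on the compared chromosomes. It was 0.0639% of a larger total, all junctions on any chromosome beyond 5 Mb of the pool's own bait break. The causes were not tested. ESC pools hold as few as 3225 junctions, which limits what windows near the minimum can show.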
